A study of Mus musculus with 4 samples.

Results

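Heat shock chaperones are proteins that help other proteins fold, and many of their genes are switched on when a cell meets heat, oxidants or other proteotoxic stress. The 9 genes described here are Hspa1a, Hspa1b, Hsph1, Dnajb1, Hspb1, Hspa8, Hsp90aa1, Hspd1 and Hspe1. They are textbook chaperone genes, chosen by name with earlier results of these data known. Each symbol was found in all 4 libraries, as 9 of the 33696 genes listed. Their levels were read in every cell type that held at least 100 cells in each library, so that differences between libraries that appear in all cell types could be set beside differences between cell types.

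The tissue was mouse Achilles tendon, digested with collagenase and DNase, and its cells were sequenced one by one in droplets (single-cell RNA-seq). Adult injury was tendon of mice aged 6 to 8 weeks with a tendon injury, and adult control was tendon of the same age without one. Neonate injury was tendon of mice at postnatal day 3 with a tendon injury, and neonate control was uninjured tendon at that day. No genotype, transgene or drug is given in the labels. The labels give neither the time from injury to harvest nor the number, strain or sex of the mice, nor whether a stated age is that at injury or at harvest. Each group was 1 library, so no difference has a replicate check and none was tested. Values are CPM, the UMIs of a gene per 1000000 UMIs of the summed cells of a type. UMIs are the molecular tags that count captured transcripts. Intervals are exact at 95% and cover counting error only.

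In the background biology, heat shock factor 1 (HSF1) is held inactive by chaperones in unstressed cells. When unfolded proteins draw the chaperones away, HSF1 forms trimers and binds heat shock elements, which are inverted repeats of the letters GAA in the promoters of chaperone genes. HSP70 proteins (Hspa1a and Hspa1b inducible, Hspa8 constitutive) bind exposed stretches of unfolded protein. Dnajb1, an HSP40, stimulates their ATPase, and Hsph1, an HSP110, exchanges their nucleotide. Hsp90aa1 encodes the inducible cytosolic HSP90, which matures kinases and steroid receptors. Hspd1 and Hspe1 encode HSP60 and HSP10, which form the folding chamber of mitochondria. Hspb1 encodes a small heat shock protein that holds unfolded proteins without ATP and is known in smooth muscle for its link to the actin cytoskeleton.

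The promoters below are shown because these genes share a known regulator. They are RefSeq promoters of build GRCm38.p6, each read 5′ to 3′ on the strand of its gene, while the counts were made on GRCm39. The windows searched ran from 250 bases before to 50 bases after each start. Of the 9 genes, 7 had such a window, and Hspa8 and Hsp90aa1 are named only. Capitals mark the letters GAANNTTC or TTCNNGAA, a pair of facing GAA repeats 2 bases apart. Each reads the same on both strands, and a match of the one can share 3 letters with a match of the other. The stretch printed is the 150 bases before the start on chr17:34972157-34972306 (minus strand) for Hspa1a, chr17:34959239-34959388 (minus) for Hspa1b, chr5:149636337-149636486 (minus) for Hsph1 and chr5:135887769-135887918 (plus) for Hspb1. For Hspe1 it is the 30 bases around the matches, chr1:55088053-55088082 (plus).
Hspa1a: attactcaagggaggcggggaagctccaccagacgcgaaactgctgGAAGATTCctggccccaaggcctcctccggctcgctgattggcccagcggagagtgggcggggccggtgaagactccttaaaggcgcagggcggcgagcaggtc
Hspa1b: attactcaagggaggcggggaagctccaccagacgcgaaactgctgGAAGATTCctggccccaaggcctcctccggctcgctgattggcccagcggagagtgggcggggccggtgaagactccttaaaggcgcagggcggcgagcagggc
Hsph1: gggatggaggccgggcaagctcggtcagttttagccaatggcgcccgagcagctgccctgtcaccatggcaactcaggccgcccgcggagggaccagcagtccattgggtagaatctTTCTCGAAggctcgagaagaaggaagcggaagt
Hspb1: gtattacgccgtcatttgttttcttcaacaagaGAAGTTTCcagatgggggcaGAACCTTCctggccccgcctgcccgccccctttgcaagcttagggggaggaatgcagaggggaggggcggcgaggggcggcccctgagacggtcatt
Hspe1: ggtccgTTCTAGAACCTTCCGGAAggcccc

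The Hspa1a and Hspa1b windows were nearly the same sequence, differing at 4 of 300 bases. Both held a match that began 104 bases before the start. In Hspb1 the matches began 117 and 97 bases before the start. Hspe1 had a run of 3 overlapping matches, and since Hspd1 is read from the opposite strand of the same stretch, with windows that overlap by 285 bases, the run belongs to both genes. Runs of 3 were found in 8 of 27025 genes, or 0.0296% of them, with Hspd1 and Hspe1 among the 8. Hsph1 had a further pair of overlapping matches just after its start, and Dnajb1 had none in either of its windows. In all, 6 of the 7 genes with a window held at least 1 match, against 17.0% of all genes. The 6 are not separate sequences, since Hspa1a and Hspa1b are near copies and Hspd1 and Hspe1 share their run. The other Hspd1 window held no match. Of other heat-inducible genes 7 of 14 held one, of TRiC chaperonin genes 3 of 7, of endoplasmic reticulum (ER) chaperone genes 0 of 12 and of immediate early genes 1 of 10. A match is a description of letters and not evidence that a factor binds there.

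The libraries held 71623116 UMIs in adult injury, 68644322 in adult control, 100169054 in neonate injury and 128626912 in neonate control. Cells were assigned by marker genes, and 4 cell types reached 100 cells in every library. They are named by their marker gate. Fibroblast lineage cells (Col1a1, Dcn, Lum and others) numbered 1697 in adult injury, 3598 in adult control, 8321 in neonate injury and 4841 in neonate control. Macrophages numbered 1216, 190, 1354 and 312 in the same order, blood endothelial cells 307, 796, 889 and 327, and mural cells, the pericytes and smooth muscle of vessel walls, 101, 360, 354 and 574. No defining marker of a cell type was at 0 in its own cells. Between 3 and 49 barcodes were shared by any pair of libraries, at most 0.45% of the smaller. One library stood apart in the sex of its cells. In the fibroblast lineage 87.6% of neonate control cells had Y-linked UMIs without Xist and 0.0207% had Xist without Y-linked UMIs, whereas Xist without Y-linked UMIs was found in 91.0% of adult injury, 95.7% of adult control and 76.9% of neonate injury cells.

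The 9 genes together were most abundant in neonate control in all 4 cell types and least abundant in neonate injury. In the fibroblast lineage they summed to 1760 CPM in adult injury, 1348 in adult control, 1167 in neonate injury and 3178 in neonate control. Macrophages held 1900 CPM in adult injury, 1655 in adult control, 1342 in neonate injury and 2640 in neonate control. Both cell types thus had the same order of libraries. Blood endothelial cells held 2125 CPM in adult injury and 2138 in adult control, with intervals of 2077 to 2174 and 2100 to 2177 that overlap, and 1372 in neonate injury and 2881 in neonate control. In mural cells the sums were 2355 CPM in adult injury, 3030 in adult control, 1423 in neonate injury and 3413 in neonate control. Adult control stood above adult injury in mural cells, the opposite order to the fibroblast lineage. Hspb1 weighed in this, at 29.4% of the mural sum in adult control and 6.21% in adult injury. Of the 9 members, 6 were higher in adult injury mural cells. In endothelial cells Hspb1 made up 34.8% of the sum in adult control and 13.5% in adult injury, and 7 members were higher in adult injury. Over the 36 pairs of gene and cell type, neonate control was highest in 30 and neonate injury lowest in 27, while adult control was lowest in the other 9. In 2 further cell types with 100 cells in both neonatal libraries, Schwann cells held 1075 CPM in neonate injury and 2382 in neonate control, and myogenic progenitors 2043 and 4422.

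**Figure D1:**
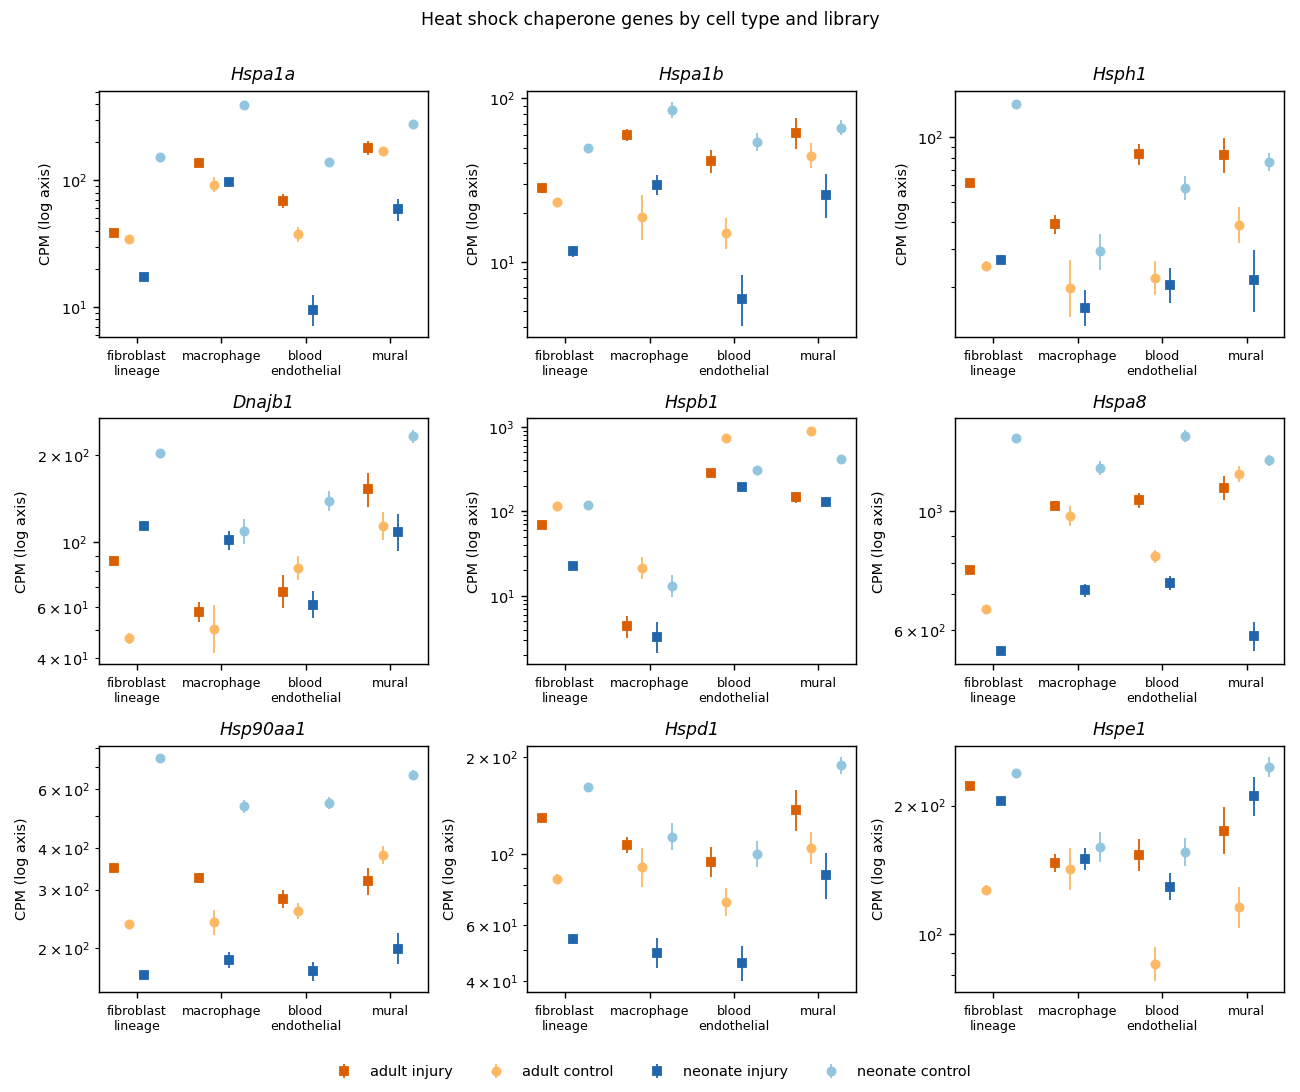
Level of each chaperone gene in CPM (log axis) in 4 cell types and 4 libraries; points are 1 library each and bars are exact 95% Poisson intervals of the UMIs. Neonate control is highest for 30 of 36 pairs of gene and cell type, and Hspb1 is the gene whose cell types lie farthest apart.

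Among the inducible HSP70 genes, Hspa1a (ENSMUSG00000091971) showed a wide range. Its fibroblast lineage level was 38.7 CPM in adult injury, 34.3 in adult control, 17.4 in neonate injury and 154 in neonate control. Macrophages held 138 CPM in adult injury, 92.4 in adult control, 96.3 in neonate injury and 393 in neonate control. Neonate control was thus at least 2-fold above every other library in both. Endothelial cells held 68.6, 37.4, 9.51 and 138 CPM in adult injury, adult control, neonate injury and neonate control, a 14.5-fold range that was the widest of the 36. The mural values were 180 CPM in adult injury, 169 in adult control, 58.9 in neonate injury and 279 in neonate control. Macrophages were the highest cell type in both neonatal libraries and mural cells in both adult libraries, so the order of cell types was not the same at the 2 ages.

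Hspa1b (ENSMUSG00000090877) is the neighbouring copy of Hspa1a. The transcripts share 63.8% of Hspa1a's 31-base words over their length but none in its last 500 bases, the end that a 3' method would read, and labels do not say which end was read. Its levels in the fibroblast lineage were 28.1 CPM in adult injury, 23.3 in adult control, 11.6 in neonate injury and 49.9 in neonate control. In macrophages they were 59.7 CPM in adult injury, 18.9 in adult control, 29.7 in neonate injury and 84.7 in neonate control. Here adult control was lowest, and its value rests on 42 UMIs. Endothelial cells held 41.2 CPM in adult injury, 15 in adult control, 5.92 in neonate injury and 54.3 in neonate control. Mural cells held 61.3, 44.7, 25.7 and 66.2 CPM in adult injury, adult control, neonate injury and neonate control, and the intervals of adult injury (49.0 to 75.7) and neonate control (59.7 to 73.3) overlap. Over the 16 sums of 4 cell types and 4 libraries, Hspa1a and Hspa1b had a Pearson r of 0.932, the highest of any member pair. That is a description, and the part of shared sequence in it was not tested. The median r of a member with the other members was lowest for Hspb1 (0.249) and Hspe1 (0.338) and highest for Hsp90aa1 (0.747).

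Hsph1 (ENSMUSG00000029657), the HSP110 that recharges HSP70, was the one member for which adult injury was the highest library, in 3 of the 4 cell types. Fibroblast lineage cells held 60.9 CPM in adult injury, 25 in adult control, 26.7 in neonate injury and 143 in neonate control. In endothelial cells adult injury was highest at 83.3 CPM, with 22.0 in adult control, 20.4 in neonate injury and 58.0 in neonate control. Mural cells held 82.7 CPM in adult injury, 39.0 in adult control, 21.6 in neonate injury and 76.7 in neonate control. The mural values of adult injury (68.3 to 99.2) and neonate control (69.7 to 84.3) overlap within counting error. Macrophages held 39.2 CPM in adult injury, 19.8 in adult control, 16 in neonate injury and 29.3 in neonate control, the lowest cell type for Hsph1 in every library, although its interval overlaps those of endothelial and fibroblast lineage cells in adult control and those of endothelial and mural cells in neonate injury.

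Dnajb1 (ENSMUSG00000005483), the HSP40 partner, was higher in both neonatal libraries than in either adult one in fibroblast lineage cells and macrophages. In the first it was at 86.6 CPM in adult injury and 46.9 in adult control, and at 114 in neonate injury and 203 in neonate control. In macrophages both adult libraries lay near each other, at 57.8 CPM in adult injury and 50.5 in adult control, as did the neonatal ones, at 102 in neonate injury and 109 in neonate control. The intervals overlapped within each age and were separate between the ages. Endothelial cells held 67.7 CPM in adult injury, 81.6 in adult control, 61.2 in neonate injury and 139 in neonate control. Mural cells held 152 CPM in adult injury, 114 in adult control, 109 in neonate injury and 231 in neonate control.

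Hspa8 (ENSMUSG00000015656), the constitutive HSP70, made up 36.4% to 59.2% of the UMIs of the 9 genes in these 16 sums. Its last 500 bases share 85.3% of their 31-base words with other genes of the GENCODE M21 transcripts, led by Gm15459. How reads of such shared sequence were counted was not tested. Fibroblast levels of Hspa8 were 777 CPM in adult injury, 657 in adult control, 549 in neonate injury and 1368 in neonate control. Macrophages held 1023 CPM in adult injury, 980 in adult control, 712 in neonate injury and 1205 in neonate control. The range between libraries was 1.69-fold to 2.49-fold over the 4 cell types, narrow beside the inducible HSP70 genes. Endothelial cells held 1048, 824, 734 and 1383 CPM in adult injury, adult control, neonate injury and neonate control. Mural cells held 1105 CPM in adult injury, 1174 in adult control, 585 in neonate injury and 1243 in neonate control.

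Hsp90aa1 (ENSMUSG00000021270) differed between libraries and hardly between the 4 shared cell types. It was at 349 CPM in adult injury, 236 in adult control, 166 in neonate injury and 742 in neonate control in the fibroblast lineage. The macrophage levels were 325, 239, 184 and 533 CPM in adult injury, adult control, neonate injury and neonate control. Within a library the 4 cell types lay within 1.2-fold to 1.61-fold of each other. Myogenic progenitors lay above all 4, at 372 CPM in neonate injury and 1375 in neonate control. Schwann cells held 195 and 499 CPM in the same order. Endothelial cells held 282 CPM in adult injury, 259 in adult control, 170 in neonate injury and 545 in neonate control, and mural cells 317, 381, 199 and 662 in the same order. In 109 neutrophils of adult injury, the one library with 100 of them, Hsp90aa1 was at 700.0 CPM and made up 62.3% of the UMIs of the 9 genes. Neonate control had 99 neutrophils and the other libraries fewer, all under the limit.

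The mitochondrial pair, whose genes are read from opposite strands of one stretch, differed in neonate injury over neonate control. Hspd1 (ENSMUSG00000025980), HSP60, was at 129 CPM in adult injury, 83.5 in adult control, 54.2 in neonate injury and 162 in neonate control in the fibroblast lineage. Hspe1 (ENSMUSG00000073676), HSP10, was at 222 CPM in adult injury, 127 in adult control, 205 in neonate injury and 238 in neonate control in the same cells. The log2 ratio of neonate injury over neonate control was thus -1.57 (-1.63 to -1.52) for Hspd1 and -0.22 (-0.25 to -0.18) for Hspe1. The other 3 shared cell types showed the same, with log2 ratios of -1.13 to -1.21 for Hspd1 and -0.09 to -0.27 for Hspe1. In the other comparisons the pair lay close in the fibroblast lineage, at -0.95 for Hspd1 and -0.91 for Hspe1 in adult control over neonate control, and at 0.63 and 0.81 in adult injury over adult control. Macrophages held 107 CPM of Hspd1 in adult injury, 91.1 in adult control, 48.9 in neonate injury and 113 in neonate control. Hspe1 in macrophages ranged only from 142 to 160 CPM over the libraries, a range of 1.13-fold. The last 500 bases of Hspe1 share 68.5% of their 31-base words with other annotated genes, against 1.06% for Hspd1.

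Hspb1 (ENSMUSG00000004951) was the member whose cell types lay farthest apart. Its libraries also differed within a cell type, by 3.79-fold to 6.9-fold, against 2.89-fold to 4.46-fold for Hsp90aa1. Endothelial cells held 287 CPM in adult injury, 743 in adult control, 196 in neonate injury and 308 in neonate control. Mural cells held 146 CPM in adult injury, 890 in adult control, 129 in neonate injury and 420 in neonate control. Adult control was the highest library in both, as it was in macrophages, and it was the highest for no other member. The fibroblast lineage held 69.4 CPM in adult injury, 115 in adult control, 22.5 in neonate injury and 119 in neonate control. Macrophages held 4.36, 21.6, 3.31 and 13.2 CPM in adult injury, adult control, neonate injury and neonate control, on 23 to 48 UMIs each. That is 31.9-fold to 65.8-fold under the highest cell type of the same library, a level at which free RNA and expression cannot be told apart.

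The split of the spread puts numbers on library against cell type. Over the 16 sums, log2(CPM + 1) was divided into the part between libraries, the part between cell types and the rest. For the median of 7538 genes with a mean of at least 20 CPM, 22.9% of the sum of squares lay between libraries and 59.2% between cell types. Hsp90aa1 had 92% between libraries, more than 99.7% of those genes. Hspa8 had 75.3%, Hspd1 72.4%, Hsph1 67.4%, Hspa1b 63.5%, Hspa1a 51.7%, Hspe1 50.8% and Dnajb1 49.8%, each above the median gene. Hspb1 had 15.2% between libraries and 82.6% between cell types. These are shares of a wide spread, with a standard deviation of 2.37 in log2 for Hspb1 against 0.68 for Hsp90aa1. The Hspb1 spread includes macrophages, at a level where free RNA cannot be told apart. For the sum of the 9 genes the shares were 74.1% and 15%. A share between libraries is an average over the cell types. The sums of adult injury and adult control, in which Hspb1 weighed, changed order between cell types. The split does not separate handling from age or injury, since each library was one age, one state and one preparation, and these cannot be told apart.

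**Figure D2:**
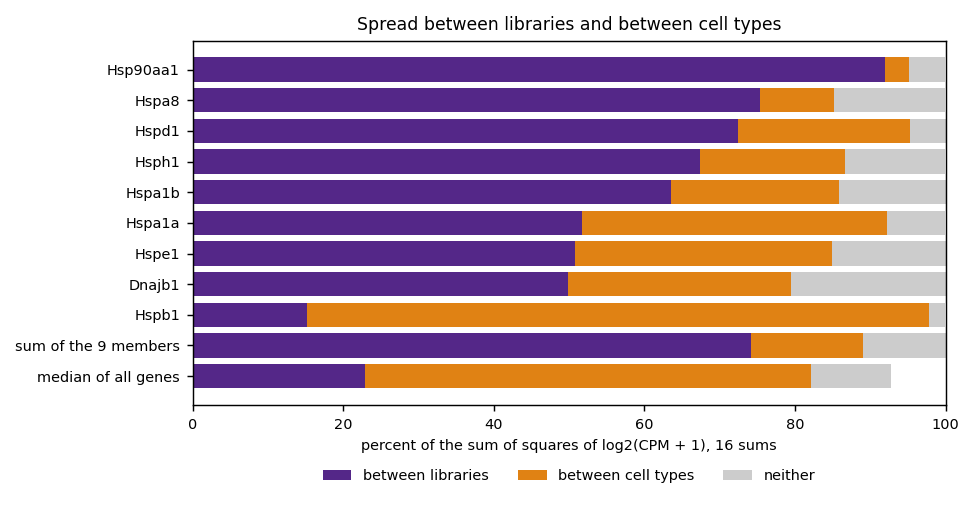
Share of the sum of squares of log2(CPM + 1) over 16 sums (4 cell types by 4 libraries) that lies between libraries, between cell types or in neither, for each gene, the sum of the 9 and the median of 7538 genes. Hsp90aa1 is at 92% between libraries and Hspb1 at 15.2%, while the 3 medians of the last bar are taken one by one and do not add up to 100%.

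In adult control over neonate control, the comparison of ages without injury, most members were lower in adults. In the fibroblast lineage 6 of the 9 were at least 2-fold lower and 0 higher, where 17.7% of 16031 genes were as much lower and 12.3% higher. The lowest log2 ratios were those of Hsph1 (-2.51, -2.60 to -2.42), Hspa1a (-2.16, -2.24 to -2.09) and Dnajb1 (-2.11, -2.18 to -2.05). The median of the 9 was -1.10, against -0.12 for all genes. Hspa1b (-1.10) and Hspa8 (-1.06) passed 2-fold by little and were at -0.98 and -0.94 once ratios were centred on the median gene. In macrophages 4 were lower and 0 higher, against 9.04% and 10.8% of all genes, with a median of -0.56 against 0.05. Hspa1b (-2.15) and Hspa1a (-2.08) led them, and Hsp90aa1 (-1.16) was at -0.87 with cells thinned to 1000 UMIs.

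In endothelial cells 4 members were at least 2-fold lower and 1 higher in adult control, where 9.84% of all genes were lower and 16.1% higher. The median of the 9 was -0.87 and that of all genes 0.11. Without mitotic cells Hspa1a and Hspa1b were further apart there, at -2.70 in place of -1.88 and -2.85 in place of -1.84, while Hsp90aa1 was at -0.79 in place of -1.07 when cells of 2 gates were kept. Mural cells had 2 lower and 1 higher, near the background of 13.5% and 10.1%, with a median of -0.80 against -0.06. The 2 were Hspe1 (-1.09) and Dnajb1 (-1.02), which a stricter gate put at -0.97 and -0.97. Hspb1 was the member that was higher in both, with log2 ratios of 1.27 (1.18 to 1.36) in endothelial and 1.08 (1.00 to 1.17) in mural cells. With mitotic cells left out these were 0.92 and 0.92, both under 2-fold. Cells with at least 2 UMIs of mitotic genes made up 3.89% of adult control and 56.3% of neonate control endothelial cells, and 2.61% and 31.2% of the fibroblast lineage. In cells with no mitotic UMIs the 9 genes summed to 1328 CPM in adult control and 3213 in neonate control in the fibroblast lineage. Endothelial cells with none held 2061 and 3290 CPM in the same order, and mural cells 2977 and 3566. Macrophages with none held 1661 and 2757, the second on 55 cells. The part of cell division was not tested further, and those of sex and age could not be told apart.

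In neonate injury over neonate control, every member had a log2 ratio below 0 in each of the 4 shared cell types, although the intervals of Dnajb1 and Hspe1 in macrophages included 0. Of the 9 in the fibroblast lineage, 7 were at least 2-fold lower and 0 higher, against 10.9% and 9.65% of all genes, and the median was -2.10 against -0.03. Hspa1a led with a log2 ratio of -3.14 (-3.24 to -3.05), followed by Hsph1 (-2.42), Hspb1 (-2.40) and Hsp90aa1 (-2.16). In macrophages 5 were lower and 0 higher, against 8.92% and 7.3% of all genes, with a median of -1.21 against -0.08. One of the 5 is Hspb1, on 23 and 48 UMIs, at the level where free RNA cannot be told apart. Endothelial cells had 6 lower and 0 higher, against 4.5% and 6.64%, with a median of -1.18 against 0.08. The lowest single values were there, with Hspa1a at -3.85 (-4.30 to -3.46) and Hspa1b at -3.18 (-3.77 to -2.67). Hspd1 (-1.13) was at -0.43 there with cells thinned to 1000 UMIs. In mural cells 8 were lower and 0 higher, against 4.51% and 6.29%, with a median of -1.35 against 0.09. Hspe1 was the mural member that did not reach 2-fold, at -0.23. Mural Hspa1b (-1.35) was at -0.87 without mitotic cells and Dnajb1 (-1.09) at -0.99 with a stricter gate.

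Schwann cells, the glia of nerves, and myogenic progenitors had 100 cells in the neonatal libraries only. In Schwann cells 5 members were at least 2-fold lower in neonate injury and 0 higher, against 7.42% and 6.4% of all genes. Hspa1a was at 17.7 CPM in neonate injury and 236 in neonate control. In myogenic progenitors 7 were lower and 0 higher, against 6.62% and 5.44%. Hspa1a had 2 UMIs there in neonate injury and 559 in neonate control, for a log2 ratio of -5.64 (-9.01 to -4.10), while Hspe1 was at 439 and 438 CPM. The medians were -1.36 in Schwann cells and -1.49 in myogenic progenitors, against 0.05 and -0.01 for all genes.

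Sex differed between these libraries, so the comparison was also read in cells that had Y-linked UMIs but no Xist. In such fibroblast lineage cells the 9 genes summed to 1165 CPM in neonate injury and 3184 in neonate control, as far apart as in all cells. Over the 35 pairs that could be read, 22 were at least 2-fold lower and 0 higher. They were 7 of 9 in the fibroblast lineage, 2 of 8 in macrophages, 6 of 9 in endothelial and 7 of 9 in mural cells, where 11.7%, 10.7%, 5.47% and 9.05% of all genes in such cells were as much lower and 7.7%, 6.67%, 5.05% and 8.98% higher. The macrophage count thus fell to 2 in these cells, against 5 in all macrophages, although 1 of the 5, Hspb1, had too few UMIs to be read. Hspa1a was at -1.21 there in place of -2.03, Hspa1b at -0.77 in place of -1.51, Hspd1 at -0.93 in place of -1.21 and Dnajb1 at 0.17 in place of -0.10. Endothelial Hspa1a was at -3.17 in place of -3.85. In mural cells Hspd1 was at -0.82 in place of -1.13, while Dnajb1 was further from 0, at -1.69 in place of -1.09. That Dnajb1 value rests on 18 UMIs in neonate injury, and mural Hspa1a, Hsph1 and Hspa1b rest on 14, 7 and 5. Endothelial Hspa1b in such cells rests on 10 UMIs in neonate injury. Mitotic cells made up 9.70% of neonate injury and 31.2% of neonate control fibroblast lineage cells. In the cells with no mitotic UMIs the sums were 1152 and 3213 CPM. The median mitochondrial share was 2.11% in neonate injury and 1.90% in neonate control, and the median depth 6565 and 11116 UMIs. Time in digestion and on ice is not given, and its part was not tested.

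In adult injury over adult control the members moved less and in both directions. Of the 9 in the fibroblast lineage, 1 was at least 2-fold higher and 0 lower, against 16.6% and 15.2% of all genes. The median was 0.56, against 0.03. Hsph1 was that gene, at 1.28 (1.18 to 1.39), and the next were Dnajb1 (0.88) and Hspe1 (0.81). Hspb1 alone was below 0, at -0.73. In macrophages 1 was higher and 1 lower, against 11.4% and 10.5%, with a median of 0.23 against -0.10. These were Hspa1b at 1.64 (1.21 to 2.14) and Hspb1 at -2.31 (-2.93 to -1.70), the second resting on 46 and 48 UMIs. With cells of 2 gates kept Hspb1 was at -0.89, and with cells thinned to 1000 UMIs Hspa1b was at 2.98.

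Endothelial cells had 2 members higher and 1 lower after adult injury, against 7.25% and 8.35% of all genes, with a median of 0.42 against 0.01. Hsph1 was at 1.92 (1.61 to 2.24), Hspa1b at 1.45 (1.05 to 1.86) and Hspb1 at -1.37 (-1.48 to -1.27). Hspb1 was at -0.55 with each cell weighted equally, -0.49 with cells thinned to 1000 UMIs and -0.60 without mitotic cells, so it lost its 2-fold in all 3. Hspa1a (0.87) passed 2-fold under the same 3, at 1.80, 1.97 and 1.31. Mural cells had 1 higher and 1 lower, against 15.1% and 11.2%, with a median of 0.40 against 0.17. Hsph1 was at 1.08 (0.70 to 1.47), but between 0.88 and 0.98 under 4 of the alternatives, and Hspb1 at -2.60 (-2.82 to -2.40). The adult injury value rests on 101 mural cells, in which the 9 fibroblast lineage markers, all detected, summed to 5840 CPM, against 1610 in adult control. Their part in the Hspb1 difference was not tested. With 0 to 2 of 9 members past 2-fold in a direction, the counts are too small to set apart from the background. Values above 0 numbered 8 of 9 in the fibroblast lineage, 8 in macrophages, 7 in endothelial and 6 in mural cells, most of them under 2-fold. Some signs turned under the alternatives. Mural Hspd1 (0.40) was at -0.59 with cells thinned to 1000 UMIs and -0.48 without mitotic cells. With each cell weighted equally mural Hspa1b (0.46) was at -0.15. Endothelial Dnajb1 (-0.27) was at 0.49 with that weighting and 0.59 with thinning. The share of all genes above 0 was not counted. In macrophages the intervals of Dnajb1, Hspa8 and Hspe1 included 0. The injury comparison at each age has its own control library, while the age comparison shares the adult control with one and the neonate control with the other.

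**Figure D3:**
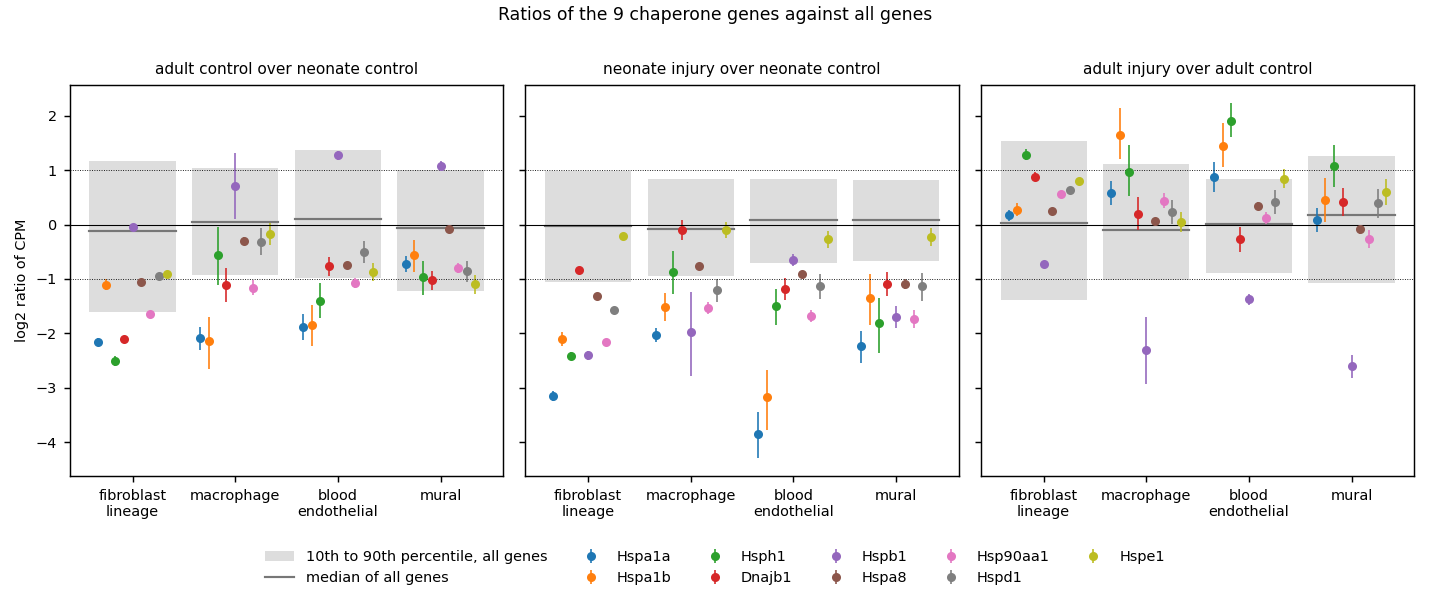
Log2 ratio of CPM for the 9 genes in 4 cell types for 3 comparisons, with exact 95% intervals; the grey band runs from the 10th to the 90th percentile of all genes in that comparison, the grey line is their median and the dotted lines mark 2-fold. Members lie at or under the lower edge of the band in much of neonate injury over neonate control, and mostly inside it in adult injury over adult control.

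Single cells were read to see how evenly they held the sums. Each cell was thinned to 3000 UMIs, and shallower cells were left out. In the fibroblast lineage the median cell held 5 UMIs of the 9 genes in adult injury, 3 in adult control, 3 in neonate injury and 9 in neonate control, in 1574, 3440, 7528 and 4774 cells. Unthinned, the median cell was at 1520, 1160, 1070 and 2890 CPM in the same order. In neonate control the lowest 10% of cells held up to 4 UMIs, against 1 in neonate injury, and 1.28% of neonate injury cells lay above its median of 9, against 42.1% of its own cells. In mural cells the medians were 5 UMIs in adult injury, 8 in adult control, 4 in neonate injury and 9 in neonate control, and in endothelial cells 6, 5, 4 and 8 in the same order. Macrophages lay closer together, with medians of 5 UMIs in adult injury, 5 in adult control, 4 in neonate injury and 6 in neonate control. Neonate control macrophages had a mean of 7.93 UMIs, above their median, and the largest variance of the 16 sums for its mean, at 4.46 times, so a minority of cells carried more of that sum. Hspa1a had the largest variance for its mean among the 9 in neonate control fibroblast lineage cells, at 3.26 times, and 72.2% of its UMIs lay in the top 10% of cells. For Hspa8 these were 1.89 times and 24.1%. Hspa1b and Hspb1, with fewer UMIs per cell, had 97.4% and 75.8% of theirs in the top 10%. Spread per cell is a description, and cells are not replicates.

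**Figure D4:**
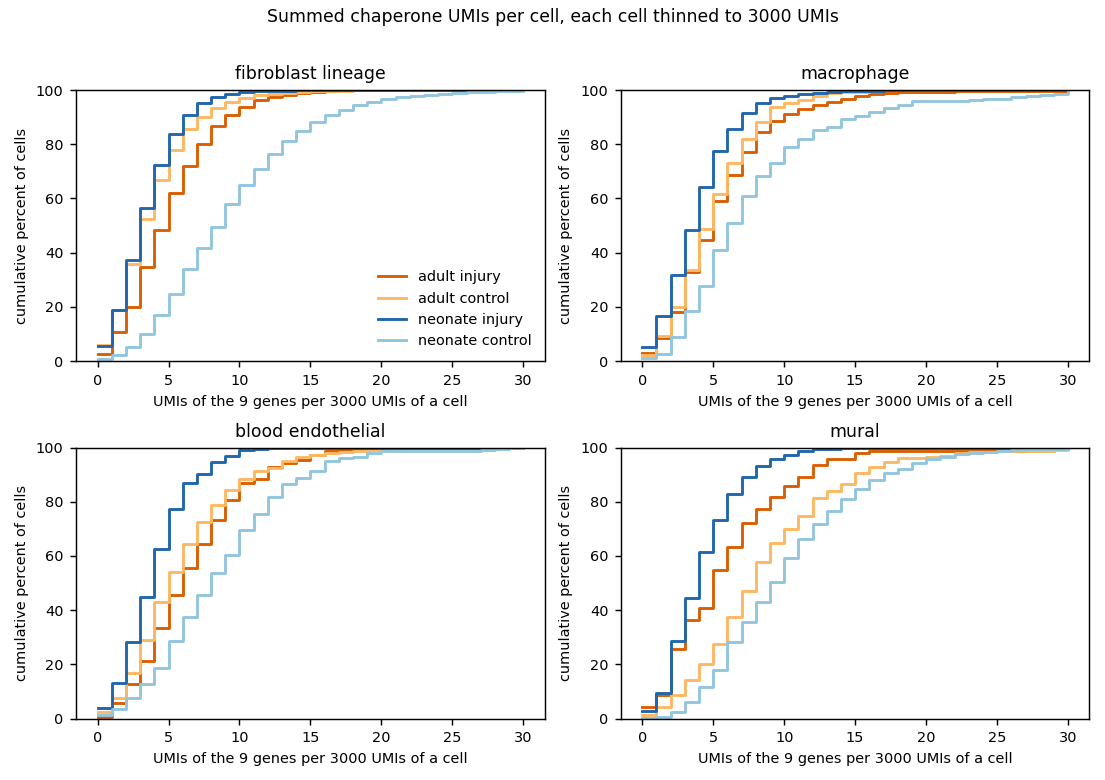
Cumulative percent of cells (vertical) by summed UMIs of the 9 genes in a cell thinned to 3000 UMIs (horizontal), for 4 cell types and 4 libraries. The neonate control curve lies farthest right in each cell type, with a fibroblast lineage median of 9 UMIs against 3 in neonate injury.

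Cells of the fibroblast lineage with at least 2 of 6 tenocyte markers (Scx, Tnmd, Mkx and others) were also read alone. Their 9-gene sums were 1861 CPM in adult injury, 1335 in adult control, 1113 in neonate injury and 2971 in neonate control. Fibroblast lineage cells with fewer tenocyte markers held 1645, 1376, 1217 and 3310 CPM in adult injury, adult control, neonate injury and neonate control. The libraries thus kept the same order in both, except that tenocyte-marker cells were the higher of the pair only in adult injury. Hspa1b in adult control was at 17.9 CPM in tenocyte-marker cells and 35.0 in the others. In cells with the higher mitochondrial share the sums were lower in all 4 fibroblast lineage libraries, for example 2880 CPM above and 3453 CPM at or below the median share in neonate control.

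Other gene lists place the members among their neighbours, and all lists were chosen with earlier results of these data known. The genes of heat shock factors differed less than the members. Hsf1 was at 22.6 CPM in adult injury, 20.3 in adult control, 14.7 in neonate injury and 21.9 in neonate control in the fibroblast lineage, and 1 of 4 in that list, Hsf4, was at least 2-fold higher in neonate injury, on 75 and 5 UMIs. Of 16 other heat-inducible genes measured, 8 were at least 2-fold lower in neonate injury fibroblast lineage cells and 0 higher, against 10.9% and 9.65% of all genes, with a median of -0.91. Among them were Ubb, which encodes ubiquitin (779 CPM in neonate injury and 2948 in neonate control), and Dnaja1, another HSP40 (213 and 709). Of the 8 TRiC subunit genes, which form the cytosolic folding chamber, 6 were lower in neonate injury, led by Cct8 (59.3 and 182) and Cct6a (57.5 and 172), with a median of -1.30. Cytosolic co-chaperones and mitochondrial chaperones moved less, with 1 of 12 and 1 of 7 at least 2-fold lower and medians of -0.57 and -0.61.

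Lists outside the cytosolic and mitochondrial chaperones are given beside them. Of 13 ER chaperone genes 2 were lower in neonate injury fibroblast lineage cells, Pdia6 and Hspa5, with a median of -0.10, a share near the 10.9% of all genes. In adult injury 3 were at least 2-fold higher, near the 16.6% of all genes, among them Calr at 914 CPM in adult injury and 351 in adult control. In mural cells 7 of the 13 were higher after adult injury, against 15.1% of all genes. Immediate early genes are known to be raised by dissociation of tissue. Of 12, 4 were at least 2-fold lower in neonate injury in the fibroblast lineage, 1 in macrophages, 4 in endothelial and 5 in mural cells. Of all genes, 10.9%, 8.92%, 4.5% and 4.51% were as much lower in that order. In macrophages 1 of the 12 was higher, against 7.3% of all genes. The medians of the 12 were -0.50, -0.06, -0.93 and -0.91 in that order of cell types. Their sum in the fibroblast lineage was 7896 CPM in adult injury, 11840 in adult control, 13440 in neonate injury and 18100 in neonate control. Endothelial cells held 6779 CPM of them in neonate injury and 10870 in neonate control, and mural cells 8479 and 13860, so that in these cells both the immediate early and the chaperone sums were lower. Macrophages held 18130 CPM of them in neonate injury and 18120 in neonate control, the cells in which the 9 chaperone genes summed to 1342 and 2640 CPM. The part of dissociation in the chaperone differences was not tested. Other small heat shock proteins had too few UMIs in macrophages and endothelial cells. In mural cells 3 of 3 measured were at least 2-fold lower in adult injury, against 11.2% of all genes. Of 7 NRF2 and metal response genes 0 were 2-fold lower in neonate injury fibroblast lineage cells, against 10.9% of all genes.

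Over the 16 sums, which share 4 libraries and 4 cell types, the summed TRiC genes had a Pearson r of 0.881 with the summed members, mitochondrial chaperones 0.869, co-chaperones 0.766, other heat-inducible genes 0.762, immediate early genes 0.318, ER chaperones 0.284, small heat shock proteins 0.257, NRF2 and metal genes -0.019 and heat shock factors -0.251. These are descriptions with no test. Among 7529 single genes, the 10 most like the member sum were Ssb (r of 0.910), Cct6a (0.897), Fxr1 (0.893), Cct3 (0.889), Hnrnpa2b1 (0.880), Cops5 (0.873), Psmc6 (0.865), Pmpcb (0.863), Ncl (0.860) and Psmd6 (0.853). Ssb, an RNA-binding protein, was at 155 CPM in adult injury, 152 in adult control, 97.0 in neonate injury and 244 in neonate control in the fibroblast lineage.

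**Figure D5:**
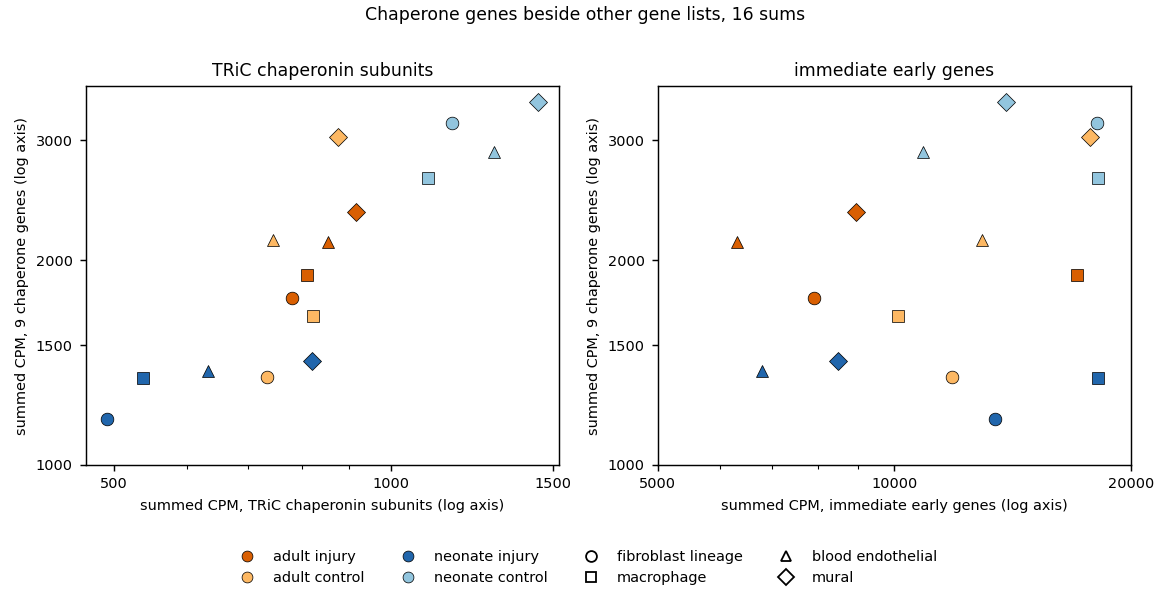
Summed CPM of the 9 chaperone genes (vertical, log axis) against summed CPM of the TRiC chaperonin genes (left) and of immediate early genes (right) for 16 sums; color gives the library and shape the cell type. Pearson r is 0.881 for TRiC and 0.318 for immediate early genes, and the macrophages of neonate injury and neonate control lie at nearly the same immediate early sum.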

How the data were processed

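The files as deposited give a UMI count for every gene in every barcode. Per the file headers the counting tool was Cell Ranger 8.0.1, and the submitters' processing notes name the build GRCm39. A barcode was kept as a cell when it had 500 or more genes, 1000 or more UMIs and no more than 15% of UMIs from mitochondria. That left 4625 cells in adult injury, 6113 in adult control, 14885 in neonate injury and 10429 in neonate control, of which 3542, 5191, 12265 and 7952 were assigned by markers.

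A non-fibroblast cell needed at least 4 markers of its type, a lead of 2 over any other type and under 150 fibroblast-marker UMIs per 10000. A fibroblast lineage cell needed 5 of 9 markers, at least 100 of their UMIs per 10000 and no more than 3 markers of any other type. Marker lists were written first, while gate thresholds were chosen with the data in view. Cells that passed 2 gates were left out as possible doublets, and no doublet caller was run. Non-fibroblast cells with 100 to 150 fibroblast-marker UMIs per 10000 were kept, even where they also passed the fibroblast gate. In neonate injury 167 of 1074 Schwann cells and 19 of 354 mural cells lay in that range.

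UMIs were summed per library and cell type. Log2 ratios had 0.5 UMIs added and exact binomial intervals, CPM exact Poisson ones. Genes with at least 50 UMIs over the 2 libraries were counted, and a fixed rule of at least 2-fold took the place of a test. The 10 genes most like the members were ranked by correlation among genes with a mean of at least 20 CPM, and up to 4 genes per list by their ratio in the fibroblast lineage. Ratios and intervals were tested on simulated Poisson counts with known fold changes, which hold no spread beyond counting error. Thinning was tested on simulated cells. Gates, filters, the split of the spread and the ranking by correlation were not simulated. Members and lists were chosen with earlier results of these data known. Python 3.11.15, numpy 2.4.6, scipy 1.17.1 and pandas 2.3.3 were used, and 14 alternatives were tried.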

Additional observations from a re-analysis of the deposited data

Results flagged for a closer look

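Injury went with opposite directions at the 2 ages for some pairs of gene and cell type, each by at least 2-fold in both. The difference of the log2 injury ratios, adult minus neonate, was 3.70 for Hsph1 in the fibroblast lineage (1.28 in adults and -2.42 in neonates), 3.42 for Hsph1 in endothelial cells (1.92 and -1.50) and 2.90 for Hsph1 in mural cells (1.08 and -1.81). For Hspa1b it was 3.16 in macrophages (1.64 and -1.51) and 4.63 in endothelial cells (1.45 and -3.18). With 1 library per group these differences were not tested. In all 5 the neonate control library, whose cells differ from the others in sex, lies in the neonatal ratio. Among neonatal cells in which Y-linked genes but not Xist had UMIs, macrophage Hspa1b was at -0.77, under 2-fold. Hsph1 was there at -2.54 in the fibroblast lineage, -1.39 in endothelial and -1.50 in mural cells, and endothelial Hspa1b was at -2.68. In neonate injury that mural Hsph1 value rests on 7 UMIs in 54 cells, and the endothelial Hspa1b value on 10 UMIs. The adult ratio of mural Hsph1 was under 2-fold under 4 alternatives, at 0.89 with the top 5% of barcodes by UMIs removed, 0.91 when centred on the median gene, 0.98 with each cell weighted equally and 0.88 without mitotic cells.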

How the results depend on the processing

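Depth, not replicates, sets the intervals, so they say nothing of animal-to-animal spread. Of the 36 pairs, 26 were at least 2-fold lower and 0 higher in neonate injury, and 16 lower and 2 higher in adult control over neonate control. In adult injury 5 were higher and 3 lower. Most counts stayed within 1.5 times of these under the 14 alternatives. An exception was the 2 higher pairs of the age comparison, Hspb1 in endothelial and mural cells. They became 1 with each cell weighted equally and 1 without mural cells. With mitotic cells removed both fell to 0.92. The 1 pair then counted was macrophage Hspb1, at 1.02 in place of 0.72. Its level is one at which free RNA and expression cannot be told apart. A further exception was the 3 lower pairs of adult injury, which became 1 with cells thinned to 1000 UMIs. Leaving out mural cells was chosen after seeing the data, and the causes were not tested. Over 1369 single ratios 25 changed sign, of which 0 were 2-fold values, 27 lost 2-fold and 23 gained it. Of the 1369, some could not move by construction. These were 108 with no minimum count, 81 without mural cells and 84 with Hspa1a and Hspa1b summed. Hspb1 in adult injury macrophages was -0.89, in place of -2.31, when cells passing 2 gates were kept. No paired analysis was possible because each group holds 1 library.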
